A study of Caenorhabditis elegans with 10 samples.

Results

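The array labelled ndab-1 RNAi holds RNA of Caenorhabditis elegans of the N2 strain that were fed, from the larval stage, bacteria directed against Y56A3A.19, the sequence name of ndab-1. It is 1 of 10 Affymetrix whole-genome arrays in the series and was chosen by its label. It was set against its labelled control, the N2 wild type on HT115 bacteria, for 12641 genes. No array has a replicate: each carries total RNA pooled from 3 biological replicates of whole, mostly young adult animals, so a difference between this array and a wild type is a size with no error and no p-value. Because whole animals were used, fewer cells of a type and less RNA per cell cannot be told apart in any value below.

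The 5 RNAi feedings of the series had 1 array each, and their values are log2 signals: RNAi labelled nduf-6 (F22D6.4), nuo-5 (Y45G12B.1), ndua-13 (C34B2.8), ndab-1 and ndub-7 (D2030.4), all of them complex I subunits. These animals grew for 2 generations on plates and a 3rd in liquid culture, with 5 mM IPTG, which switches on the double-stranded RNA in the bacteria, throughout. Neither IPTG nor a control plasmid appears in the label of the wild type on HT115. A second N2 wild type grew on OP50 plates and then in K12 liquid culture, as did the missense mutants gas-1(fc21), mev-1(kn1) and isp-1(qm150). The label of isp-1 cites the sequence name of mev-1. Adults were enriched by sucrose centrifugation.

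The gene ndab-1 encodes the worm counterpart of human NDUFAB1, the mitochondrial acyl carrier protein. In human and yeast cells this small protein carries the growing chain in mitochondrial fatty acid synthesis, from which lipoic acid is made, and it helps the assembly of iron-sulfur clusters. The same protein is also a subunit of respiratory complex I, the NADH dehydrogenase of the inner membrane. Lipoate is the cofactor of the pyruvate, oxoglutarate and branched-chain ketoacid dehydrogenases and of the glycine cleavage system.

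The targeted gene went against the label on the probe set used here. Probe set 175476_s_at of ndab-1, on chromosome III, read 10.71 (log2 signal) in the HT115 wild type, 10.63 in the K12 wild type and 11.78 in the array labelled ndab-1 RNAi. It read 10.58, 10.82, 10.74 and 11.26 in the arrays labelled nduf-6, nuo-5, ndua-13 and ndub-7 RNAi, and 11.03, 11.40 and 10.77 in gas-1, mev-1 and isp-1. The array labelled ndab-1 RNAi was thus the highest of the 10, at 211% of the HT115 level, a log2 difference of 1.08. The other probe set of the gene, 172842_x_at, read 10.61 in the HT115 wild type and 10.43 in the array labelled ndab-1 RNAi, a difference of -0.18 or 88.4% of the control. On it the other RNAi arrays read 10.33, 10.68, 10.57 and 11.07, so the array labelled ndab-1 RNAi lay inside their range. The suffixes s and x mark probe sets whose probes can match more than 1 transcript. Neither probe set read below the range of the other RNAi arrays, so a clearly lowered target was not seen. The array is named by its label throughout.

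The other acyl carrier protein gene, ndab-2 (F37C12.3, also on chromosome III), read 11.28 in the HT115 wild type, 10.64 in the K12 wild type and 10.82 in the array labelled ndab-1 RNAi. The remaining RNAi arrays read 10.50, 10.90, 10.71 and 11.35, on both sides of the ndab-1 RNAi value. In their own arrays the other targets stood below the HT115 wild type by sizes that differed widely. These were -0.95 and -1.11 on the 2 probe sets of nuo-5, -0.51 for ndua-13, -0.25 for nduf-6 and -0.17 for ndub-7. The ndub-7 difference was about the size that ndab-1 had on 172842_x_at, -0.18. Neither nduf-6 nor ndub-7 was below the K12 wild type, where nduf-6 read 11.02 against 11.07 in its own array and ndub-7 11.01 against 11.41.

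**Figure D1:**
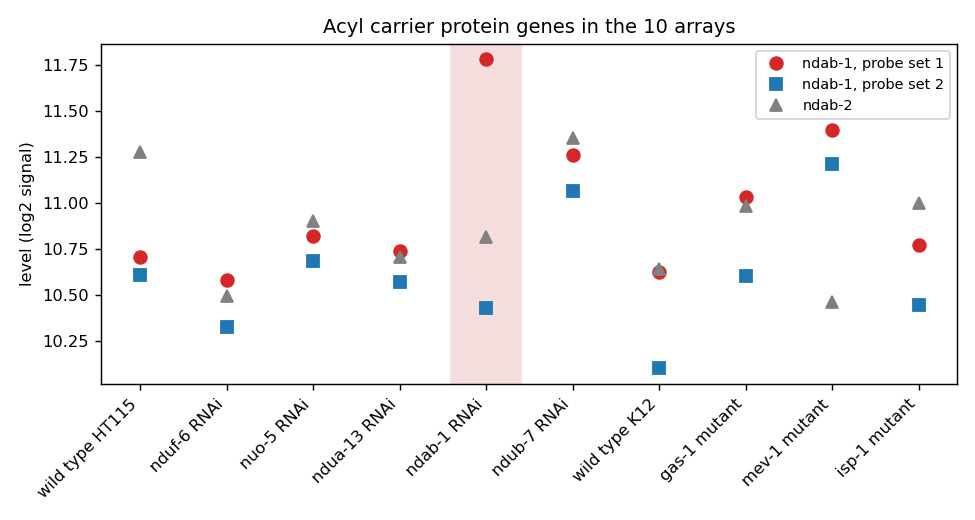
Level (log2 signal, quantile normalised) of the probe sets of ndab-1 and ndab-2 in each of the 10 arrays, 1 point per array; the shaded column is the array labelled ndab-1 RNAi. Probe set 1 of ndab-1 (175476_s_at) was highest there, at 11.78, while probe set 2 (172842_x_at) was at 10.43, inside the range of the other arrays.

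Against the HT115 wild type, 720 of 12641 genes (5.7%) were at least 2-fold higher in the array labelled ndab-1 RNAi and 518 (4.1%) at least 2-fold lower. The median difference of all genes was -0.03, with 5809 higher (46%) and 6817 lower. The counts of the lists below are to be read beside these shares. Counts for the other RNAi arrays, which share that control, were 365 higher (2.89%) and 506 lower (4%) for nduf-6, 512 (4.05%) and 412 (3.26%) for nuo-5, 667 (5.28%) and 610 (4.83%) for ndua-13, and 1453 (11.5%) and 1303 (10.3%) for ndub-7. The K12 wild type, with no RNAi, also had 522 genes (4.13%) higher and 386 (3.05%) lower than the HT115 wild type. The HT115 wild type was the lowest of the 10 arrays in 347 of the 720 higher genes (48.2%, against 10.5% of all genes) and the highest of the 10 in 417 of the 518 lower genes (80.5%, against 14.8% of all genes). Against the K12 wild type, 201 of the 720 were also at least 2-fold higher and 46 of the 518 at least 2-fold lower. Both gene sets were chosen by their distance from the HT115 wild type. That choice by itself makes this control extreme more often and lowers the counts against another control. These shares therefore cannot show how far the HT115 array departs from other wild types. The genes described in full below are given with the K12 wild type beside them. The share of each difference that belongs to the single HT115 control array was not tested.

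Among the other arrays, the one labelled ndua-13 RNAi was nearest. The subunit it targets, the counterpart of human NDUFA13, is another accessory subunit of complex I. Only 183 genes were at least 2-fold apart between the arrays labelled ndab-1 and ndua-13 RNAi, 128 higher and 55 lower, and Pearson's r of their levels across the 12641 genes was 0.993. The K12 wild type came next with 385 genes (r = 0.989), ahead of isp-1 with 549 and the array labelled nuo-5 RNAi with 601. The array labelled nduf-6 RNAi was 1059 genes away, the HT115 wild type 1238 (r = 0.971) and the array labelled ndub-7 RNAi 1531. These r values describe pairs of arrays across genes, which are not independent and share their probes.

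**Figure D2:**
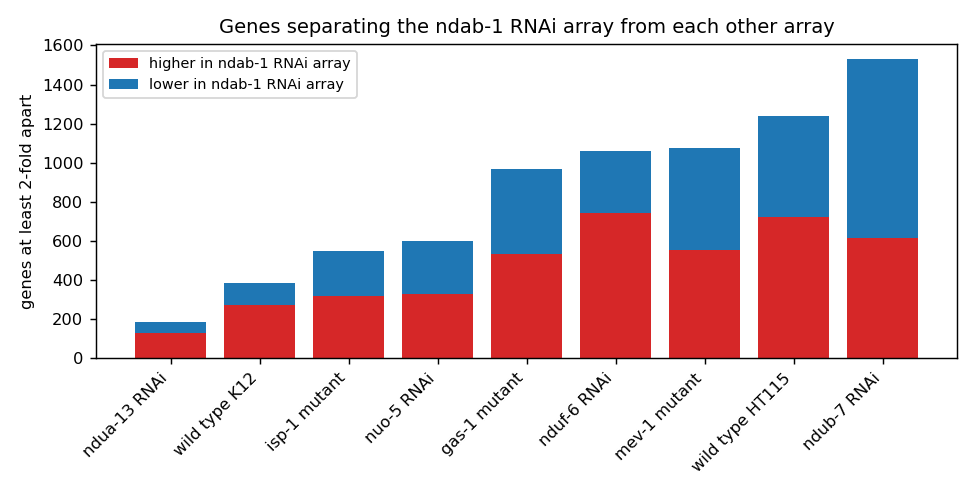
Number of genes (of 12641) at least 2-fold higher (red) or lower (blue) in the array labelled ndab-1 RNAi than in each of the other 9 arrays, in rising order of the sum. The array labelled ndua-13 RNAi was nearest (183 genes) and the array labelled ndub-7 RNAi farthest (1531).

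Collagen and hedgehog-related genes, of the cuticle and of its secreting skin, were often higher. C. elegans rebuilds its collagen cuticle at each larval moult, and the collagen genes are switched on in waves with the moulting cycle. Of 113 collagens named col, 83 were above the HT115 wild type, 49 of them at least 2-fold (43.4%, against 5.7% of all genes) and 6 were at least 2-fold lower; the median was 0.80 log2 (0.18 in the K12 wild type). Of 18 collagens named for body shape (such as dpy, rol, sqt and bli genes), 11 were at least 2-fold higher and 1 lower, with a median of 1.69. In the same order as before, the medians of this list were -0.01, 1.38, 0.90 and 3.47 in the arrays labelled nduf-6, nuo-5, ndua-13 and ndub-7 RNAi, and 0.38 in the K12 wild type.

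The cuticle collagen dpy-8 showed the widest difference of that list. It read 4.62 in the HT115 wild type, 8.14 in the K12 wild type and 9.27 in the array labelled ndab-1 RNAi, with 7.06, 8.31, 9.21 and 10.77 in the other RNAi arrays. The collagen sqt-1 read 5.98, 8.50 and 9.76 in the same 3 arrays, and 7.41, 9.22, 9.38 and 11.90 in the others. For both, the array labelled ndub-7 RNAi was highest and the HT115 wild type lowest. The collagen col-36 had another order, with 9.17 in the HT115 wild type, 12.48 in the K12 wild type, 13.08 in the array labelled ndab-1 RNAi and 10.07, 11.57, 13.41 and 11.43 in the others.

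The hedgehog-related genes encode secreted proteins of the skin and lining cells and patched-like membrane proteins. Of 64 measured, 45 were higher and 19 at least 2-fold so (29.7%, against 5.7% of all genes), while 2 were at least 2-fold lower. The median was 0.32 (0.07 in the K12 wild type). The groundhog-like gene grl-19 read 3.67 in the HT115 wild type, 7.53 in the K12 wild type and 8.88 in the array labelled ndab-1 RNAi, against 4.45, 7.61, 8.59 and 6.46 in the other RNAi arrays, where it was the highest of the 5. The genes grl-3 (4.58 log2), grl-20 (4.24) and grl-23 (4.08) had the next largest differences from the HT115 wild type. Of 24 moulting genes, 19 were higher and 4 at least 2-fold so, with a median of 0.24 (-0.02 in the K12 wild type). They included qua-1, a hedgehog-related moulting gene, at 2.87, myrf-1, a transcription factor of larval development, at 1.61, and mlt-7, a cuticle peroxidase, at 1.17; lin-42, the worm period homolog, stood at 1.44 on the probe set used and at 0.00 on the other.

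Markers of stage were read beside these genes. The moult marker mlt-10 read 7.93 in the HT115 wild type, 8.44 in the ndab-1 RNAi array and 9.84 in the ndub-7 RNAi array, while mlt-8 was 9.88 and 9.76 in the HT115 wild type and the ndab-1 RNAi array, noah-1 11.25 and 11.36, and nas-37 7.74 and 7.26. These 4 markers thus went both ways. Of the yolk protein genes of the adult hermaphrodite, vit-2 read 14.82 and 14.80 in these 2 arrays, vit-4 15.13 and 15.01, vit-5 15.34 in both, and vit-6 15.06 and 15.11. The gene vit-1 read 11.78 in the HT115 wild type and 12.53 in the ndab-1 RNAi array, a difference of 0.75, and stood 1.33 above the K12 wild type. The part of larval stage in the collagen result was not tested.

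Genes of the germ line shifted by small amounts that ran in opposite directions for sperm and oocytes. Of 57 sperm genes, 50 were higher than in the HT115 wild type and 10 at least 2-fold (17.5%, against 5.7% of all genes). Their median was 0.67, where 46% of all genes were above 0. The same median was -2.50 in the array labelled nduf-6 RNAi, 0.37 for nuo-5, 0.09 for ndua-13, 1.75 for ndub-7 and 0.57 in the K12 wild type. The sperm protein gene msp-50 read 10.35 in the HT115 wild type, 11.18 in the K12 wild type, 11.55 in the array labelled ndab-1 RNAi and 7.76, 11.12, 10.64 and 12.80 in the others. The ndab-1 RNAi array therefore lay well inside the spread of the RNAi arrays. Of 34 oocyte and eggshell genes, 30 were lower and 4 higher, with a median of -0.29 (-0.14 in the K12 wild type). The chondroitin proteoglycan genes cpg-24 (-2.49) and cpg-20 (-2.17) were the 2 members at least 2-fold lower, and cpg-22 (1.70) was the member at least 2-fold higher. Of 24 germline genes, 19 were lower, with a median of -0.28 (-0.16 in the K12 wild type). The germ granule gene pgl-2 stood at -1.11 and syp-3, of the synaptonemal complex, at -0.99. The K12 wild type was nearer for both, with 7.93 against 7.57 in the ndab-1 RNAi array for pgl-2 and 8.38 against 8.15 for syp-3.

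The genes farthest above the HT115 wild type were led by pud-3, a gene first named for a protein raised in daf-2 insulin receptor mutants. It read 4.58 in the HT115 wild type, 7.24 in the K12 wild type and 12.08 in the array labelled ndab-1 RNAi, and 5.06, 12.50, 11.62 and 13.38 in the other RNAi arrays. Its relative pud-4 read 6.37, 8.19 and 11.85 in the same 3 arrays and 5.50, 12.29, 11.59 and 12.62 in the others. For both, 4 of the 5 RNAi arrays were high, and the array labelled nduf-6 RNAi stayed with the wild types. Raised values were not limited to RNAi feeding. In gas-1, mev-1 and isp-1, pud-3 read 10.84, 8.77 and 12.31 and pud-4 10.62, 10.3 and 12.57, all above both wild types. Among the 10 genes farthest above, only pud-3 and pud-4 also stood more than 3 log2 above the K12 wild type, apart from spl-2, described below.

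The secreted SCP-like genes scl-11, scl-12 and scl-13 had a different pattern. The level of scl-13 was 3.59 in the HT115 wild type, 10.14 in the K12 wild type, 10.34 in the array labelled ndab-1 RNAi and 7.11, 10.03, 10.31 and 3.13 in the other RNAi arrays. Here the HT115 wild type and the array labelled ndub-7 RNAi were low together, and the K12 wild type stood only 0.20 below the ndab-1 RNAi array. The saposin-like gene spp-11 read 2.55 in the HT115 wild type, 6.84 in the K12 wild type and 7.77 in the array labelled ndab-1 RNAi, with 5.92, 7.13, 8.51 and 2.51 in the others. F57F4.2 (4.75 in the HT115 wild type, 9.72 in the ndab-1 RNAi array and 9.59 in the K12 wild type) shared that pattern, and C13A2.4 stood at 2.97, 7.88 and 5.26 in those arrays.

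**Figure D3:**
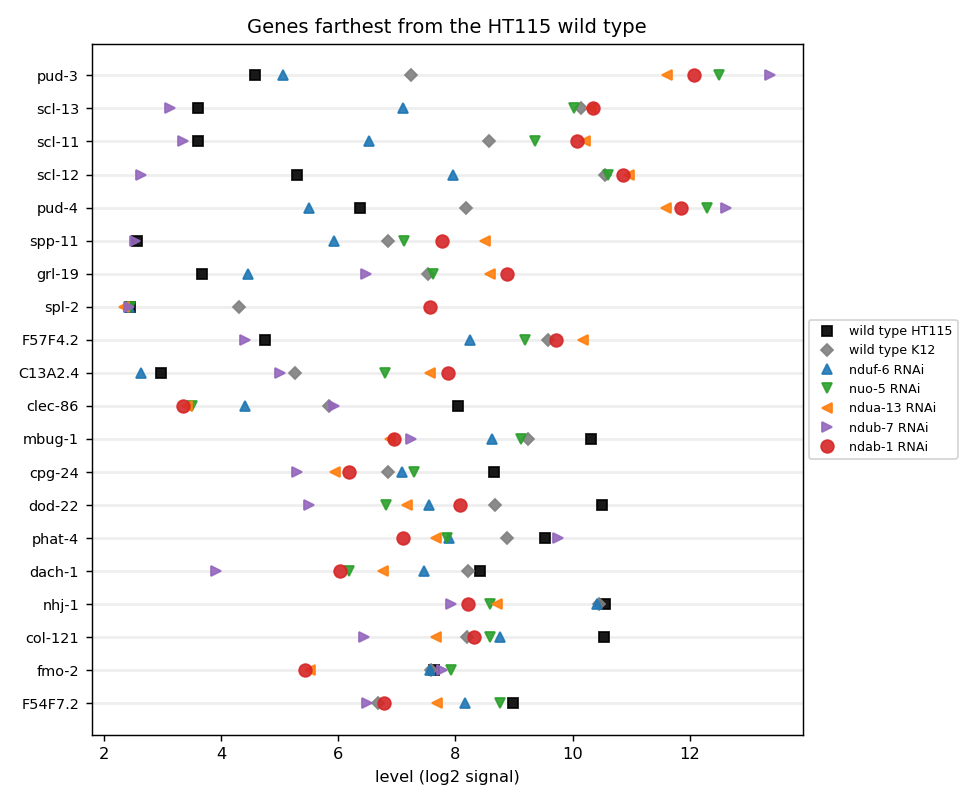
Level (log2 signal) of the 10 genes farthest above (pud-3 to C13A2.4) and the 10 farthest below (clec-86 to F54F7.2) the HT115 wild type in the array labelled ndab-1 RNAi, in the 5 RNAi arrays and both wild types, 1 point per array. The K12 wild type lies near the ndab-1 RNAi array for scl-13 (10.14 against 10.34) and far from it for pud-3 (7.24 against 12.08).

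Gut and defence genes were mixed. Of 30 lysozymes and saposin-like proteins, which digest bacteria, 22 were higher and 7 at least 2-fold, with a median of 0.39 (0.04 against the K12 wild type); besides spp-11 they included lys-3 at 2.44, spp-23 at 2.36 and ilys-3 at 1.77, the last of which read 10.26 in the ndab-1 RNAi array and 11.06 in the K12 wild type. Of 29 intestine genes, 23 were higher and 9 at least 2-fold (31%, against 5.7% of all genes), with a median of 0.43. The cathepsin B-like protease gene cpr-2 read 4.18 in the HT115 wild type, 6.81 in the K12 wild type, 8.38 in the array labelled ndab-1 RNAi and 7.81, 6.32, 10.08 and 3.25 in the others, a wide scatter among the RNAi arrays. Of 94 C-type lectins, 20 were at least 2-fold higher (21.3%, against 5.7% of all genes) and 9 lower (9.57%, against 4.1%). Their median was 0.03. Among 17 antimicrobial peptide genes of the nlp and cnc families, made by the skin, 5 were at least 2-fold lower (29.4%, against 4.1% of all genes) and 1 higher. Their median was -0.10, and -0.35 in the K12 wild type. Against the K12 wild type the median was 0.02, with 11 of the 17 higher in the ndab-1 RNAi array. The skin peptide gene nlp-29 read 11.56 in the HT115 wild type, 11.18 in the K12 wild type, 10.36 in the array labelled ndab-1 RNAi and 10.25, 10.10, 9.86 and 10.20 in the other RNAi arrays, so all 5 RNAi arrays were below both wild types.

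Neuropeptide genes of the FMRFamide-like (flp) family were higher than in the HT115 wild type in 22 of 24 cases, with a median of 0.97. In 12 the difference was at least 2-fold (50%, against 5.7% of all genes). The gene flp-4 read 6.30 in the HT115 wild type, 7.81 in the K12 wild type and 8.31 in the array labelled ndab-1 RNAi, with 7.66, 7.31, 8.51 and 7.42 in the others. The K12 wild type had a median of 1.18 for the list, and against it the ndab-1 RNAi median was -0.15. The same held for 32 neuron genes, with a median of 0.47 against the HT115 wild type and -0.01 against the K12 wild type. Among 22 insulin-like peptide genes the median was 0.16; ins-35 read 6.97 in the HT115 wild type, 8.79 in the K12 wild type and 10.48 in the array labelled ndab-1 RNAi, with 8.68, 10.38, 10.86 and 11.51 in the others, so it was above both wild types in 4 of the 5 RNAi arrays and below the K12 wild type in the array labelled nduf-6 RNAi.

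Stress defence lists had medians near 0, with single genes far from the HT115 wild type. The mitochondrial superoxide dismutase gene sod-3 read 4.46 in the HT115 wild type, 6.84 in the K12 wild type and 7.58 in the array labelled ndab-1 RNAi, with 6.59, 7.41, 8.14 and 5.84 in the others; the median of 6 superoxide dismutase and catalase genes was 0.01. The small heat shock gene hsp-12.6 read 6.24, 8.76 and 9.49 in the same 3 arrays and 8.42, 8.09, 10.60 and 4.31 in the others, and the 12 heat shock genes had a median of 0.02, with 4 at least 2-fold higher (33.3%, against 5.7% of all genes) and hsp-12.1 (-2.18) lower. Both genes were lowest among the RNAi arrays in the array labelled ndub-7 RNAi.

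Detoxification enzymes included a few genes that were higher in every RNAi array than in both wild types. The UDP-glucuronosyltransferase gene ugt-62 read 7.65 in the HT115 wild type, 7.01 in the K12 wild type and 10.08 in the array labelled ndab-1 RNAi, with 9.34, 9.96, 9.76 and 10.41 in the others. The cytochrome P450 gene cyp-14A2 read 2.07, 2.61 and 5.48 in the same 3 arrays and 4.96, 5.92, 4.62 and 5.28 in the others. The cadmium-responsive gene cdr-2 read 8.29, 8.38 and 10.41, and 8.83, 10.35, 10.15 and 10.51. In these 3 genes the wild types were close to each other and did not overlap the RNAi arrays. High values also occurred in missense mutants for ugt-62 and cdr-2. In gas-1, mev-1 and isp-1, ugt-62 read 10.22, 7.55 and 8.93 and cdr-2 11.14, 8.98 and 11.04. In the same mutants cyp-14A2 read 3.24, 2.56 and 3.55. As families, 55 UDP-glucuronosyltransferases had a median of 0.05 (4 at least 2-fold higher, 6 lower), 51 cytochromes P450 -0.02 (5 and 5), 37 glutathione S-transferases 0.08 (7 and 0) and 8 metallothionein and cadmium-response genes 0.09 (2 and 0).

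The glutathione S-transferase gene gst-19, which responds to the hypoxia factor HIF-1 and hydrogen sulfide, read 4.65 in the HT115 wild type, 5.84 in the K12 wild type and 7.78 in the array labelled ndab-1 RNAi, against 9.23 in the array labelled nduf-6 RNAi and 5.71, 5.65 and 5.58 in the other 3. Sulfide quinone oxidoreductase, sqrd-1, followed the same order, with 8.56, 9.53 and 9.90 in the first 3 arrays, 10.51 for nduf-6 and 9.43, 9.30 and 9.41 for the rest. Among the RNAi arrays, the ndab-1 array ranked second to nduf-6 in both genes. The 9 genes of this list had a median of 0.19, with 2 at least 2-fold higher.

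Genes farthest below the HT115 wild type were led by clec-86, a C-type lectin, which read 8.04 in the HT115 wild type, 5.84 in the K12 wild type and 3.35 in the array labelled ndab-1 RNAi, with 4.40, 3.49, 3.41 and 5.93 in the others. The gene nhj-1, of DNA end joining, read 10.56 in the HT115 wild type, 10.46 in the K12 wild type and 8.22 in the array labelled ndab-1 RNAi, with 10.41, 8.59, 8.71 and 7.92 in the others and 10.51 to 10.62 in the missense mutants. The 10 arrays thus fell into 6 between 10.41 and 10.62 and 4, all RNAi arrays, between 7.92 and 8.71. The flavin monooxygenase gene fmo-2 separated the arrays differently, with 5.42 in the array labelled ndab-1 RNAi and 5.52 in the array labelled ndua-13 RNAi, against 7.56, 7.92 and 7.76 in the other RNAi arrays, 7.64 in the HT115 wild type and 7.59 in the K12 wild type. Among the missense mutants, fmo-2 was below both wild types in mev-1 (6.01) and isp-1 (6.74) and above them in gas-1 (9.31). The gene mbug-1 (10.32 in the HT115 wild type, 9.24 in the K12 wild type, 6.95 in the ndab-1 RNAi array) had its nearest value, 6.88, in the array labelled ndua-13 RNAi as well.

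In 2 of the 10 farthest below, the ndab-1 RNAi array was not below the K12 wild type: the collagen col-121 (10.54 in the HT115 wild type, 8.31 in the ndab-1 RNAi array) and F54F7.2 (8.98 and 6.78) were 0.12 and 0.11 higher in the ndab-1 RNAi array than in the K12 wild type. For F54F7.2 the arrays labelled nduf-6 and nuo-5 RNAi, at 8.16 and 8.76, lay near the HT115 wild type. The remaining genes of that set were cpg-24, dod-22 (-2.43), phat-4 (-2.42) and dach-1 (-2.39). The gene dod-22, named for lying downstream of the insulin pathway factor DAF-16, read 10.51 in the HT115 wild type, 8.67 in the K12 wild type, 8.07 in the ndab-1 RNAi array and 7.55, 6.81, 7.17 and 5.50 in the other RNAi arrays.

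The respiratory chain and its partners differed little from the HT115 wild type. Of 35 complex I genes, 22 were higher and 13 lower, with a median of 0.09. On the probe sets used for the list, ndab-1 itself, on the higher-reading of its probe sets, was the sole member past 2-fold. In the arrays labelled nduf-6, nuo-5, ndua-13 and ndub-7 RNAi the medians were -0.13, 0.07, 0.05 and 0.44, and the K12 wild type stood at -0.11. Besides ndab-1, members past 1.5-fold, which 24.7% of all genes passed in either direction, were nduf-7 (0.81) and gas-1 (0.61), core subunits of the peripheral arm, above the control, and nduv-2 (-0.85) and nduv-3 (-0.84) below it. The other probe set of gas-1 stood at 1.10, past 2-fold. The core subunit gene nduv-2 read 12.62 in the HT115 wild type but 11.49 in the K12 wild type, 11.78 in the array labelled ndab-1 RNAi and 11.70, 11.59, 11.50 and 11.85 in the others. For nduv-2 and nduv-3 the HT115 wild type stood above the other arrays named here, and the ndab-1 RNAi array was 0.29 and 0.25 above the K12 wild type.

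The partners of the acyl carrier protein came next, because lipoate synthesis and iron-sulfur assembly are its own pathways. Of 14 genes for the second acyl carrier protein, mitochondrial fatty acid synthesis, lipoate attachment and iron-sulfur clusters, 6 were higher and 8 lower than in the HT115 wild type, none past 2-fold, with a median of -0.11 (0.08 against the K12 wild type). That split was near the split of all genes, of which 46% were higher. The lowest was abtm-1, a mitochondrial ABC transporter of iron-sulfur export, at 6.03 in the HT115 wild type, 5.67 in the K12 wild type and 5.19 in the array labelled ndab-1 RNAi, with 5.16, 4.00, 4.82 and 6.30 in the others. The ferredoxin gene fdx-2 read 9.23, 8.85 and 8.82 in the same 3 arrays and 9.24, 9.58, 8.99 and 9.14 in the other RNAi arrays, 0.18 below the lowest of them. The enoyl reductase gene mecr-1, of mitochondrial fatty acid synthesis, read 8.92, 9.07 and 9.12 and, in the others, 9.42, 9.52, 9.24 and 9.51. Of the 14, 4 lay below all 4 other RNAi arrays, where 10.5% of all genes did.

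The enzymes that use lipoate were slightly higher. Of 17 genes of the lipoate-dependent dehydrogenases, 13 were above the HT115 wild type, 1 of them at least 2-fold, with a median of 0.22; the other RNAi arrays had medians of 0.13, 0.10, 0.23 and 0.71 and the K12 wild type 0.13. The glycine decarboxylase gene gldc-1 read 8.50 in the HT115 wild type, 8.76 in the K12 wild type and 9.62 in the array labelled ndab-1 RNAi, with 8.23, 9.32, 8.76 and 10.07 in the others. The branched-chain ketoacid dehydrogenase gene bckd-1A read 8.87, 9.49 and 9.79, and 8.72, 9.67, 9.41 and 10.23. The array labelled ndub-7 RNAi was highest for both, followed by the ndab-1 RNAi array. The shared subunit gene dld-1 stood at 0.59, and gcsh-2, a glycine cleavage H protein, at -0.51.

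Of 25 tricarboxylic acid (TCA) cycle genes, 21 were higher and none past 2-fold, with a median of 0.27 (0.09 in the K12 wild type). The isocitrate dehydrogenase gene idhb-1 read 8.23 in the HT115 wild type, 9.19 in the K12 wild type and 9.23 in the array labelled ndab-1 RNAi, with 8.42, 8.74, 9.30 and 10.22 in the others. Complex III had a median of 0.22 (0.00 in the K12 wild type), with the core protein gene ucr-2.2 at 1.18 and the cytochrome c gene cyc-2.2 at 1.02. Medians were 0.02 for 5 complex II genes, 0.03 for 7 of complex IV and 0.16 for 15 of the ATP synthase. The complex IV median was 0.12 on the values as deposited.

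The mitochondrial unfolded protein response, by which cells raise mitochondrial chaperones under stress, had a median of 0.12 over 17 genes, none past 2-fold. The mitochondrial Hsp70 gene hsp-6 read 10.01 in the HT115 wild type, 10.25 in the K12 wild type and 10.60 in the array labelled ndab-1 RNAi, with 10.88, 10.71, 11.19 and 11.04 in the others, so on this probe set the array labelled ndab-1 RNAi was the lowest of the 5 RNAi arrays and above both wild types. On the other probe set it read 9.46, and the array labelled nuo-5 RNAi was lower at 9.05. The chaperonin gene hsp-60 read 9.78, 10.31 and 10.32 in the first 3 and 10.59, 9.36, 10.53 and 11.59 in the others. The ubiquitin-like ubl-5 stood at -0.75. Mitochondrial ribosomal protein genes had a median of -0.08 over 57 genes and cytosolic ones -0.01 over 74 (0.01 on the values as deposited). Proteasome genes were lower in 27 of 33 cases, as were 6817 of all 12641 genes, by a median of -0.10.

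**Figure D4:**
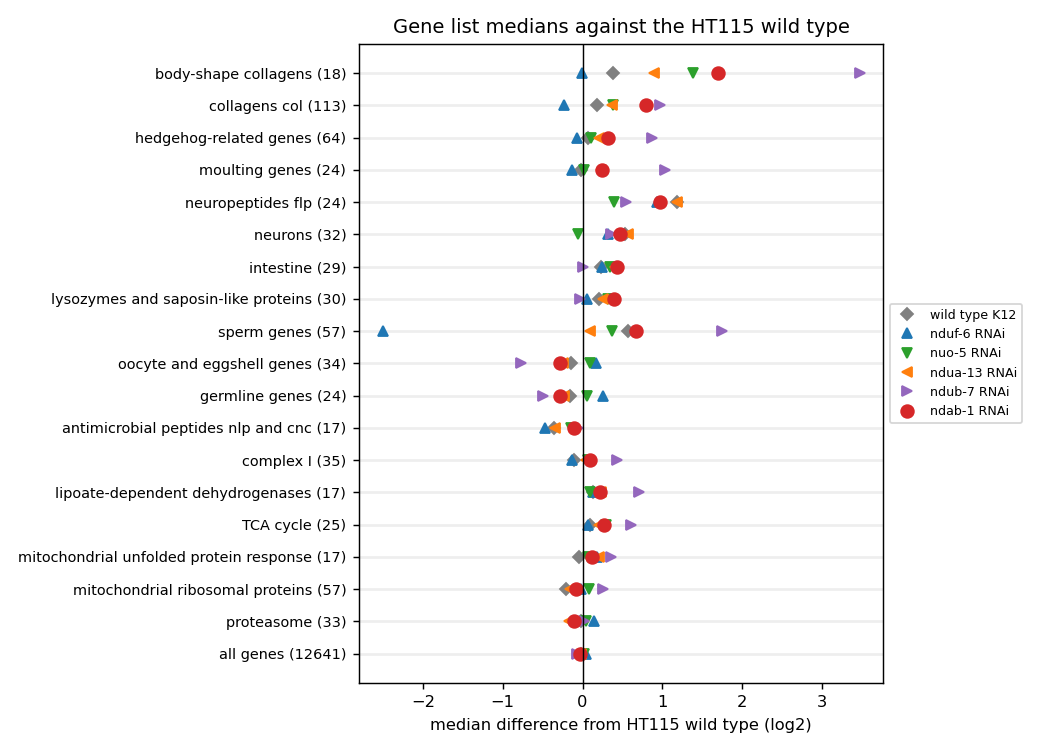
Median difference (log2) from the HT115 wild type of each gene list, with its number of genes in brackets, in the 5 RNAi arrays and the K12 wild type, 1 point per array; the last line is the median of all genes. The array labelled ndab-1 RNAi had its largest median for body-shape collagens (1.69), between nuo-5 (1.38) and ndub-7 (3.47), and complex I stood at 0.09.

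In fat and amino acid metabolism the list medians were likewise small: 0.09 for 56 genes of fatty acid beta-oxidation, 0.15 for 20 of fatty acid synthesis, 0.16 for 11 lipases, 0.09 for 11 of propionate breakdown, 0.26 for 15 of branched-chain amino acid breakdown and 0.33 for 14 of the methionine cycle. The lipase and methionine medians were -0.23 and -0.05 against the K12 wild type. The peroxisomal acyl-CoA oxidase gene acox-1.2, of pheromone synthesis, read 5.17 in the HT115 wild type, 5.29 in the K12 wild type and 7.90 in the array labelled ndab-1 RNAi, with 4.21, 8.37, 6.56 and 10.46 in the others. The acyl-CoA dehydrogenase gene acdh-1, of the propionate shunt, read 9.61, 8.56 and 11.15, and 11.90, 11.43, 9.41 and 12.90 in the others. Here the ndab-1 and ndua-13 RNAi arrays parted, with ndua-13 near the HT115 wild type. Glycolysis had a median of 0.17, the pentose phosphate pathway 0.22 and the glyoxylate cycle and gluconeogenesis 0.03.

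The last comparison asked what set the array labelled ndab-1 RNAi apart from the 4 other feedings, and it did not use the wild types. The limma test (Benjamini-Hochberg over 12641 genes, two-sided, the lone array assumed to vary like the other 4) called 5 genes higher (0.0396%) and 0 lower at an adjusted p of 0.05. At an unadjusted p under 0.05 it gave 76 higher and 19 lower. In data simulated with the same spread it recovered 1.1% of 2-fold and 9.3% of 4-fold changes, so most differences of that size would have been missed. Its p-values measure the ndab-1 RNAi array against the spread between 4 different targets, and for a single gene the smallest one-sided permutation p of 1 array against 4 is 0.2.

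The gene spl-2 had by far the largest difference. It is named for sphingosine-1-phosphate lyase, the enzyme that ends sphingolipid breakdown. It read 7.57 in the array labelled ndab-1 RNAi and 2.41, 2.44, 2.34 and 2.41 in the other RNAi arrays, 5.17 ± 0.145 (SE) above their mean with a limma adjusted p of 0.00337. The HT115 wild type read 2.44, but the K12 wild type read 4.31, gas-1 7.09, mev-1 2.44 and isp-1 4.72. High values thus also occurred outside the RNAi arrays. With the 3 missense arrays in the spread as well, the limma adjusted p of spl-2 was 1.

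The other 4 genes called were B0454.8, gtnt-46, gtnt-45 and oac-43, the last named as an O-acyltransferase. B0454.8 read 5.11 in the array labelled ndab-1 RNAi and 2.28 to 2.60 in the other 9 arrays (2.79 ± 0.107 above the other RNAi mean, SE, limma adjusted p = 0.00814). None of those 9 was raised. For gtnt-46 the ndab-1 RNAi array read 4.79 and the other RNAi arrays 2.43 to 2.49 (2.31 ± 0.113, SE, limma adjusted p = 0.0181), with 3.73 in the HT115 wild type and 4.48 in the K12 wild type. The differences of gtnt-45 (1.82) and oac-43 (1.63), each with a limma adjusted p of 0.0331, had the same pattern, with both wild types also above the 4 other RNAi arrays. In all 5 genes those 4 arrays lay under 2.60, the level below which a probe set's mean was left out, where values hardly vary. A p-value from so narrow a spread can be too small. The mean used for that filter took in the ndab-1 RNAi array itself. B0454.8 and oac-43 passed the filter only through their high value there, so their calls are not separate from that selection. None of the 5 calls held when the nduf-6, nuo-5 or ndua-13 RNAi array was left out (smallest limma adjusted p 0.0562, 0.165 and 0.146), and without a mean-variance trend only spl-2 passed (limma adjusted p = 0.021).

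A count of range described the same contrast without a test. It used the same values and filter and takes in the genes called above, so it is not separate support. A low gene can pass the filter through a high ndab-1 RNAi value, while signals near the floor leave little room below the range. In 22 genes (0.174%) the array labelled ndab-1 RNAi lay at least 1 log2 above the highest of the other RNAi arrays, and in 1 gene (0.00791%) at least 1 log2 below the lowest. Taken in turn against the remaining 4, the array labelled nduf-6 RNAi had 68 (0.538%) above and 340 (2.69%) below, nuo-5 48 (0.38%) and 62 (0.49%), ndua-13 20 (0.158%) and 9 (0.0712%), and ndub-7 700 (5.54%) and 256 (2.03%). The arrays labelled ndab-1 and ndua-13 RNAi, which lie close together, limit each other's counts: without ndua-13, ndab-1 had 51 above and 11 below, and without ndub-7 it had 35 and 5. The smallest gap counted above was 1.006 and the largest not counted 0.924. At 1.5-fold there were 53 above and 15 below.

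Most of the 22 were low elsewhere: in 16 all 4 other RNAi arrays were under 4 log2. In 15 the array also stood at least 2-fold above the HT115 wild type, in 19 it was the highest of all 10 arrays, and in 10 the HT115 wild type too was above the other RNAi arrays. The C-type lectin clec-71 read 6.67 in the array labelled ndab-1 RNAi and 3.39, 2.52, 2.57 and 2.54 in the others, with 2.49 in the HT115 wild type, 3.68 in the K12 wild type and 6.94, 2.55 and 4.43 in gas-1, mev-1 and isp-1. Its highest arrays, ndab-1 RNAi, gas-1, isp-1 and K12, are also the highest for spl-2. For clec-71, though, K12 stood little above the array labelled nduf-6 RNAi. The O-acyltransferase gene oac-56 read 5.75 in the array labelled ndab-1 RNAi and 2.15 to 2.82 in the other 9. Like B0454.8 and oac-43, it passed the filter on low values only through the ndab-1 RNAi array.

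Among genes above the median of all values, 7.56, 5 of the 22 remain. The gene asah-2, named for acid ceramidase, which splits ceramide into sphingosine and a fatty acid upstream of the lyase, read 11.38 in the array labelled ndab-1 RNAi. It read 9.90, 9.59, 10.16 and 9.56 in the other RNAi arrays, 9.80 in the HT115 wild type, 10.52 in the K12 wild type and 9.65 to 10.69 in the missense mutants, so the ndab-1 RNAi array was the highest of the 10. Its difference from the other RNAi mean, 1.58 ± 0.302 (SE), had a limma adjusted p of 1. The fasting-induced lipase gene fil-1 read 8.36 in the ndab-1 RNAi array, close to the HT115 (7.88) and K12 (8.13) wild types, against 6.82, 5.01, 6.95 and 4.67 in the other RNAi arrays, which all lay further from the wild types.

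Y65B4BR.1 read 11.05 in the array labelled ndab-1 RNAi and 9.18, 8.36, 9.94 and 6.52 in the others (8.27 in the HT115 wild type, 9.79 in the K12 wild type). B0348.2 read 8.57, against 6.93, 6.71, 7.21 and 6.58, with 4.33 in the HT115 wild type and 5.71 in the K12 wild type. In both, the ndab-1 RNAi array was the highest of the 10 arrays. Smaller gaps of 0.69 to 0.59 were seen for T19D12.4, clec-61, C17H12.8, C34D1.4 and bgal-2, and clec-61 (11.76) stayed below both wild types (12.24 and 12.12).

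**Figure D5:**
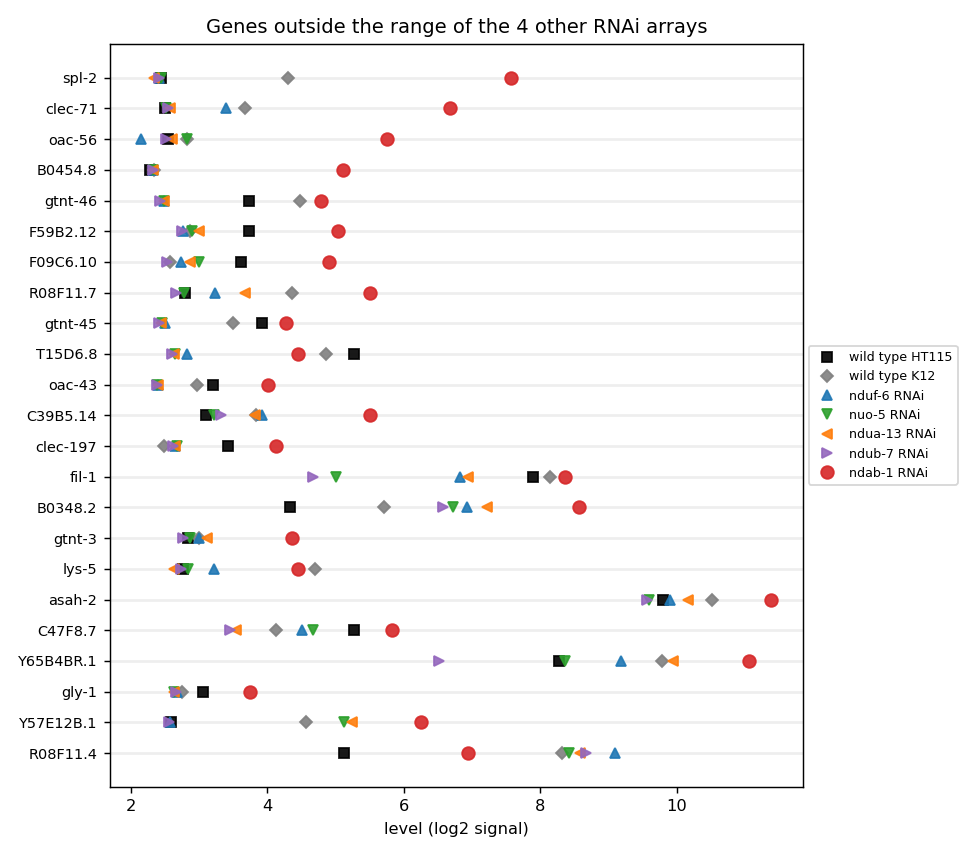
Level (log2 signal) of the 22 genes in which the array labelled ndab-1 RNAi (red) lay at least 1 log2 above the highest of the 4 other RNAi arrays, and of R08F11.4, where it lay below the lowest, in the 5 RNAi arrays and both wild types, 1 point per array. In 16 of the 22 all 4 other RNAi arrays were under 4 log2; asah-2 read 11.38 in the array labelled ndab-1 RNAi and 9.56 to 10.16 in the other RNAi arrays.

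On the low side, R08F11.4 read 6.94 in the array labelled ndab-1 RNAi and 9.09, 8.42, 8.58 and 8.67 in the other RNAi arrays, with 5.12 in the HT115 wild type and 8.32 in the K12 wild type. The HT115 wild type was the lowest here, so the ndab-1 RNAi array was 1.83 above that control and 1.38 below the K12 wild type. C40H1.7 followed, with 7.41 against 8.27 to 8.60 in the other RNAi arrays and 8.74 and 8.55 in the wild types. It was also low in gas-1 (6.81) and mev-1 (7.44), but not in isp-1 (8.34). The pharyngeal gland gene phat-4 read 7.11, against 7.89, 7.86, 7.67 and 9.76, with 9.53 in the HT115 wild type and 8.88 in the K12 wild type.

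The fasting-responsive acyl-CoA synthetase gene acs-2, which starts mitochondrial fatty acid oxidation, read 8.70 in the array labelled ndab-1 RNAi and 11.43, 10.80, 9.17 and 10.14 in the others. The HT115 wild type read 9.84, the K12 wild type 11.85 and gas-1 12.62, so the ndab-1 RNAi array was the lowest of the 10 on this probe set. The other probe set of acs-2 read 8.68 there and 8.61 in the array labelled ndua-13 RNAi. The carnitine palmitoyltransferase gene cpt-4, of the same pathway, stood at 5.86 on the probe set used, level with 5.87 in the array labelled ndua-13 RNAi. On the other probe set of cpt-4 the ndab-1 RNAi array was the lowest of the 10, at 5.46 against 6.22 in the array labelled ndua-13 RNAi. Gaps of 0.52 to 0.35 below the other RNAi arrays were seen for alh-5, an aldehyde dehydrogenase gene, eif-3.I, of translation initiation, osgn-1, pole-4, of DNA replication, ZK678.3 and acbp-5, named as an acyl-CoA binding protein.

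Over lists, body wall muscle was above the mean of the 4 other RNAi arrays in 19 of 19 genes, by a median of 0.20. Of all 12641 genes, 5152 were above that mean. Muscle was above all 4 in 6 of 19 (31.6%, against 7.57% of all genes). Its median against the HT115 wild type was 0.15, and 0.16 in the K12 wild type. In the arrays labelled nduf-6, nuo-5, ndua-13 and ndub-7 RNAi it was -0.31, -0.065, 0.01 and 0.08. The muscle myosin gene myo-3 read 10.03 in the array labelled ndab-1 RNAi, 9.36, 9.37, 9.69 and 9.63 in the others, 9.33 in the HT115 wild type and 10.16 in the K12 wild type. The K12 wild type was thus the nearest of these arrays for this gene, and the list's median against it was 0.02. All 18 body-shape collagens were above the mean of the other feedings, by a median of 0.34, but none was above all 4. On the low side, cytosolic ribosomal protein genes lay below all 4 in 20 of 74 cases and proteasome genes in 9 of 33, where 10.5% of all genes did; their medians against the other RNAi mean were -0.04 and -0.11, beside -0.04 for all genes. The remaining lists were F-box A genes (median -0.22 against the HT115 wild type over 102 genes, 2 at least 2-fold higher and 12 lower), nuclear hormone receptors (-0.02 over 161, 5 and 8), RNA interference genes (-0.12 over 33, 0 and 0), pharynx genes (-0.16 over 18, 0 and 1), endoplasmic reticulum chaperones (0.07 over 13, 0 and 0), embryo genes (-0.10 over 9, 0 and 1), vitellogenins (0.00 over 5, 0 and 0) and genes downstream of DAF-16 (0.00 over 16, 4 and 2).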

How the data were processed

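The authors deposited log2 signals per probe set, taken for log2 because they ran from 1.43 to 16.01; the summary and normalisation methods are not given in the sources used here. Medians of the 10 arrays, 5.88 to 6.01, differed by more than 0.1, so values were quantile normalised. Of 22625 probe sets, 77 were controls; 20766 carried 1 gene symbol, 887 several and 895 none, and only the first were used. By Entrez identifier 20701 matched RefSeq's table of assembly WBcel235, used for names and neighbours only. Probe sets with a mean under the 25th percentile (2.60) were left out; the 15803 kept gave 12641 genes, each by its probe set of highest mean. Levels of different probe sets were not compared. Signal over background was not used here; precision is limited by the few arrays.

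Differences from the HT115 wild type are sizes only. The array labelled ndab-1 RNAi was tested against the 4 other RNAi arrays with limma 3.58.1 (R 4.3.3; lmFit, eBayes with trend, 3 residual degrees of freedom, Benjamini-Hochberg), tested on 10 simulated data sets with 200 of 12641 genes changed. Tables were made with Python 3.11.15, pandas 2.3.3 and numpy 2.4.6. Alternatives were the deposited values, median centring, other filters, the median over probe sets, the other wild type, another fold, no trend, the missense arrays in the spread, and leaving out each other RNAi array. The genes named were the targets, complex I members past 1.5-fold, the 10 highest and lowest differences and gaps among genes above the median of all values, those past the limma threshold and up to 6 members of each list. Genes at least 1 log2 outside the range that are outside this rule were chosen after their values were seen. The lists and the array itself were chosen with earlier results of these data known.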

Additional observations from a re-analysis of the deposited data

Results flagged for a closer look

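Of 115 results tested among the 4 other RNAi arrays (list medians against the HT115 wild type and levels of named genes), 13 had 1 array far from the other 3, where chance gives about 1 in 20; these arrays are the background against which the array labelled ndab-1 RNAi was read. The array labelled ndub-7 RNAi stood apart in the medians of the ATP synthase list (0.37), fatty acid synthesis (0.71), branched-chain amino acid breakdown (0.745) and superoxide dismutases and catalases (-0.24), and in the levels of phat-4 (9.76), C34D1.4 (6.73) and oac-43 (2.38, under the filter level). The array labelled nduf-6 RNAi stood apart for pud-4 (5.50), T15D6.8 (2.82) and clec-71 (3.39). The array labelled nuo-5 RNAi stood apart in the median of cytosolic ribosomal proteins (-0.004), a difference of small size, and for acbp-5 (8.86). The array labelled ndua-13 RNAi stood apart for fmo-2 (5.52), where the ndab-1 RNAi array, at 5.42, was its only neighbour among the RNAi arrays.

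The array labelled ndab-1 RNAi passed the limma threshold against the other RNAi arrays in spl-2 (5.17), B0454.8 (2.79), gtnt-46 (2.31), gtnt-45 (1.82) and oac-43 (1.63), on the log2 scale. The other 4 arrays lay under the filter level for low values in all 5 genes, and no call held without the nduf-6, nuo-5 or ndua-13 RNAi array. B0454.8 and oac-43 passed that filter only through their high value in the ndab-1 RNAi array.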

How the results depend on the processing

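Of the medians of gene lists under the alternatives, 326 moved by less than the spread of the other RNAi arrays and kept their sign, and 31 did not. Counts at least 2-fold from the HT115 wild type, 720 higher and 518 lower, became 473 and 236 with a filter at the 50th percentile, 403 and 160 against the mean of both wild types, 270 and 115 against the K12 wild type (chosen after seeing the data), and 1488 and 1630 at 1.5-fold. The 5 genes higher by limma became 3 after median centring, 53 without a filter (with 3 lower), 0 with a filter at the 50th percentile, 1 without a trend and 8 with the missense arrays in the spread; leaving out 1 other RNAi array gave 0 to 6 higher (0 without nduf-6, nuo-5 or ndua-13). Genes above the range, 22, became 4 with the filter at the 50th percentile; leaving out 1 array gave 26 to 51 above and 1 to 11 below. Median centring moved the median of all genes against the other RNAi arrays to -0.10 from -0.04.

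List medians against the K12 wild type were 0.079 for the acyl carrier protein partners, 0.142 for complex IV, 0.102 for mitochondrial ribosomal proteins, -0.059 for glycolysis, -0.227 for lipases, -0.046 for the methionine cycle, 0.006 for metallothioneins, -0.011 for C-type lectins, 0.04 for lysozymes, -0.009 for neurons, -0.148 for flp neuropeptides, 0.243 for intestine and 0.307 for DAF-16 downstream genes. Against the mean of both wild types they were 0.095 for complex IV, 0.041 for glycolysis, -0.004 for lipases, 0.097 for the methionine cycle, 0.2 for lysozymes, 0.179 for neurons and 0.447 for flp neuropeptides. On deposited values complex IV was at 0.119 and cytosolic ribosomal proteins at 0.013; after centring the latter was at -0.036 and metallothioneins at 0.019 (0.013 by the median over probe sets). With a filter at the 50th percentile the medians were 0.15 for glutathione S-transferases, 0.266 for UDP-glucuronosyltransferases, -0.01 for C-type lectins, 0.619 for insulin-like peptides and 0.135 for nuclear hormone receptors, over fewer genes; without a filter intestine was at 0.205. Of the genes named for the largest differences or gaps and at least 2-fold from the HT115 wild type, 4 changed sign against the K12 wild type: col-121 (0.12), F54F7.2 (0.11), R08F11.4 (-1.38) and lys-5 (-0.25). So did other named genes, such as ilys-3 (-0.80), alh-5 (-0.66), ubl-5 (0.42), gcsh-2 (0.21), nduv-2 (0.29) and nduv-3 (0.25). Except for the filters, which change the genes tested, the cause was not tested. No paired analysis was possible because the replicate numbers only name arrays and pair none of them.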

Other observations

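Several genes in which the array labelled ndab-1 RNAi stood above the other RNAi arrays are neighbours on chromosome I, in the order of RefSeq's WBcel235 genes. This run of 20 neighbouring protein-coding genes, from oac-45 to E03H4.4, was chosen after the values were seen, and it includes oac-43, T15D6.8, gtnt-45 and gtnt-46. All 20 have a probe set. In 9 of them the HT115 wild type, the K12 wild type and the array labelled ndab-1 RNAi all lay above the 7 other arrays, a pattern found in 130 of 17118 genes (0.759%) with no filter on low values. In 11 the ndab-1 RNAi array lay more than 0.3 above the 7 others, as it did in 136 of 17118 genes (0.794%). Because the run was picked from these same values, its counts beside those of all genes cannot show an excess.

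T15D6.8 read 5.27 in the HT115 wild type, 4.86 in the K12 wild type and 4.45 in the array labelled ndab-1 RNAi, and 2.60 to 2.82 in the 7 others. The gene gtnt-45 read 3.91, 3.49 and 4.27 in the same 3 arrays, and 2.41 to 2.50 in the others. The glycosyltransferase-like gene bgnt-1.7 of the same run read 2.05 in the HT115 wild type, 3.21 in the K12 wild type and 3.94 in the ndab-1 RNAi array, so here the HT115 wild type did not stand with the other 2 arrays. In the run, 9 genes, such as T15D6.9 (1.96, 1.96 and 1.95), showed no such split at all. These levels lie in the lowest part of the signal range.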
